A study of Mus musculus with 10 samples.

Results

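The genes described here are Cyp2e1, Cyp1a2 and Por, the P450 enzymes and the reductase that turn acetaminophen into its toxic metabolite. They were taken as every probe of the array whose gene name in the scanner files equals one of these names. This gave 3 genes of 24007 tested and 4 probes of 39429, with 2 probes for Cyp2e1 and 1 each for Cyp1a2 and Por. The series followed the liver transcriptome of mice after an overdose of the painkiller. Female C57BL/6 mice, 8 weeks of age, went without food for 24 h and then received acetaminophen once by intraperitoneal injection, 350 mg/kg in phosphate-buffered saline, or the saline alone. Livers were taken 3, 8, 24, 48 or 72 h after the injection. Treated and control mice therefore shared strain, sex, age, fast and vehicle, and differed by the drug. Total liver RNA of 1 control mouse (labelled Cy3) and of 1 treated mouse (labelled Cy5) was hybridised to each of 10 Agilent arrays, 2 per time point. The labels give a number to the control mouse and to the treated mouse of each array, and the numbers recur between time points. The dyes ran 1 way only. At a single time point a probe's dye effect and the drug's effect cannot be told apart, but a constant dye effect cancels between time points.

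Cyp2e1 and Cyp1a2 encode haem-containing monooxygenases of the endoplasmic reticulum, made above all by the hepatocytes around the central vein. CYP2E1 also oxidises ethanol and is the main enzyme that forms the reactive quinone imine from acetaminophen. CYP1A2 oxidises caffeine as well and its gene is a target of the aryl hydrocarbon receptor. Neither enzyme works without electrons, which POR, the NADPH-cytochrome P450 reductase, passes to every microsomal P450.

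The probes that carried the measurements below are given with their mm9 positions, as the scanner files list them, and the sequence of the second Cyp2e1 probe is shown because it measured Cyp2e1 on all 10 arrays. The second Cyp2e1 probe lies on the plus strand at chr7:147956922-147956981, and the Cyp1a2 probe lies on the minus strand at chr9:57528060-57528119. The brighter Cyp2e1 probe lies at chr7:147960628-147960687 and the Por probe at chr5:136211122-136211181, both on the plus strand. Each probe is 60 bases long. The exon or intron under each probe was not analysed here.
Cyp2e1 second probe: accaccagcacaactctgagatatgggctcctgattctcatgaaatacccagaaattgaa

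The promoters are shown because the P450 genes were called lower after acetaminophen and Por was not called. Each is the 250 bases before the gene's start in RefSeq, assembly GRCm38.p6, written 5′ to 3′ on the strand of the gene. All 3 members had an entry. The positions are chr7:140763569-140763818 (plus strand) for Cyp2e1, chr9:57683656-57683905 (minus strand) for Cyp1a2 and chr5:135688895-135689144 (plus strand) for Por. Capitals mark the TATA box in the P450 genes and the GC boxes in Por.
Cyp2e1 promoter: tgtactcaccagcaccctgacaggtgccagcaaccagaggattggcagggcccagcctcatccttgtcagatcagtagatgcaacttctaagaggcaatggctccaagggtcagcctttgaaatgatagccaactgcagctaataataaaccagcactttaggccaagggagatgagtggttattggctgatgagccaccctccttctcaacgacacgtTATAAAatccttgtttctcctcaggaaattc
Cyp1a2 promoter: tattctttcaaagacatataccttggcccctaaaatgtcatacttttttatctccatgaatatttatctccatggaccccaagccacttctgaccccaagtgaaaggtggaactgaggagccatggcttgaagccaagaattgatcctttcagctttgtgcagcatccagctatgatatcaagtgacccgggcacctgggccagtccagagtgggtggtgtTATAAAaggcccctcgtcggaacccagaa
Por promoter: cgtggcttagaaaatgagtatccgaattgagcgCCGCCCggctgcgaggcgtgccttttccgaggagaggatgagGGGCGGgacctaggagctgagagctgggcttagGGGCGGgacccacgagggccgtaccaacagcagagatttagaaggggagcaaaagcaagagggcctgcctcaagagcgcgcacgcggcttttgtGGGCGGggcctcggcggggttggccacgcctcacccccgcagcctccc

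Motifs were searched on both strands. The TATA box (TATAAA) occurred 1 time in the Cyp2e1 window, starting at -31 from the gene's start, and 1 time in the Cyp1a2 window, at -29. It had 0 matches in the Por window, and 12.4% of 32851 windows of this length held it. The GC box (GGGCGG) occurred 4 times in the Por window and 0 times in either P450 window, and 32.7% of all windows held it. The 5-letter core of the xenobiotic response element (GCGTG), the letters bound by the aryl hydrocarbon receptor, had 3 matches in the Por window and 0 in the window of Cyp1a2 or Cyp2e1, against 28.2% of all windows. The CCAAT box (CCAAT) had 2 matches in the Cyp2e1 window and 0 in the others, against 33.8% of all windows. The GC content was 48.8% for Cyp2e1, 47.2% for Cyp1a2 and 65.6% for Por, and the median window had 52.4%. The matches describe these letters and were not tested as binding sites.

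Every spot of the members was well above background in both channels on all 10 arrays, and 0 spots were saturated. The log2 ratios of the 2 arrays of a time point correlated across genes at 0.676 (3 h), 0.798 (8 h), 0.757 (24 h), 0.857 (48 h) and 0.265 (72 h). The number of probes well above background ranged from 23558 to 32993 in Cy3 and from 17625 to 29941 in Cy5. Levels below are log2 intensities of a channel, and ratios are log2 of treated over control, where 0 is no difference. A gene was called at an adjusted p under 0.05, from limma's moderated test over all 24007 genes with Benjamini-Hochberg adjustment.

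Both P450 transcripts fell at 24 h and 48 h after acetaminophen and read close to the control level at 72 h, and Por was not called at any time point. Cyp1a2 was at 22.7% of control at 24 h and 15.6% at 48 h, and Cyp2e1 at 51.9% and 15.5%. At 24 h, 2 of the 3 members were called lower, where 10.9% of all genes were called, 7.09% lower and 3.79% higher. At 48 h it was again 2 of 3, where 31.4% of all genes were called, 13.5% lower and 17.9% higher. At 3 h, 0 of 3 were called, where 7.44% of all genes were, 4.08% lower and 3.36% higher. Cyp2e1 read 66.9% of control at 3 h, with no call. At 8 h, 0 of 3 were called, where 12.9% of all genes were, 7.57% lower and 5.33% higher. At 72 h limma called 0 of 24007 genes (0%), with 766 at an unadjusted p under 0.05 and 0 to 2 called under the other settings, so the lack of a call there is not particular to the members.

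**Figure D1:**
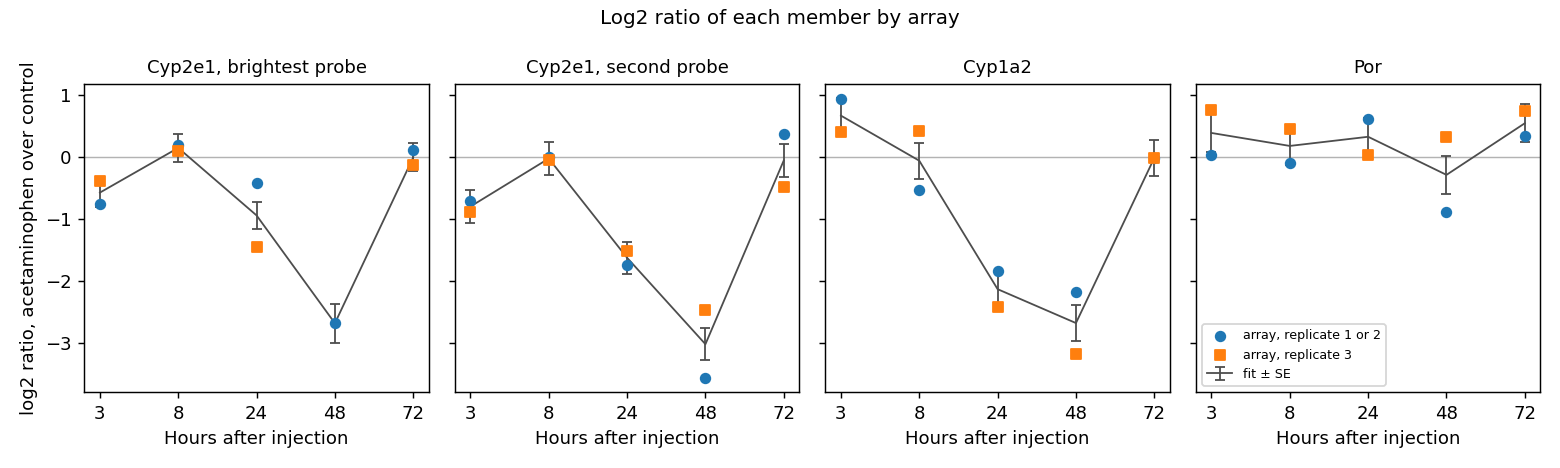
Log2 ratio of acetaminophen over control (y) by hours after injection (x, evenly spaced) for both Cyp2e1 probes, Cyp1a2 and Por. Points are arrays, blue circles for replicate 1 or 2 and orange squares for replicate 3, and the line is the fit with its standard error; the P450 probes fall at 24 and 48 h and return to about 0 at 72 h, and Por stays between -0.90 and 0.75.

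Cyp2e1 is represented by its brighter probe. At 3 h its log2 ratio was -0.76 on the array of replicate 1 and -0.40 on that of replicate 3. At 8 h the values were 0.19 (replicate 2) and 0.09 (replicate 3). At 24 h they were -0.43 and -1.46, and at 72 h 0.11 and -0.13. At 48 h the array of replicate 1 gave -2.69, and the spot of replicate 3 was marked an outlier by the scanner software and left out. With it kept, that spot read -1.97. The 48 h value was thus the lowest, the 24 h pair was widely spread and overlapped the 3 h pair, and the 8 h and 72 h arrays lay near 0.

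In the fit, Cyp2e1 stood at -0.58 ± 0.22 (SE) at 3 h (limma, adjusted p = 0.174; 95% interval -1.115 to -0.04). It was 0.14 ± 0.22 at 8 h (adjusted p = 0.781). At 24 h it fell to -0.95 ± 0.22 (limma, adjusted p = 0.0418; both arrays below 0). At 48 h it fell to -2.69 ± 0.32 (limma, adjusted p = 0.00118), a 6.45-fold decrease resting on 1 array. At 72 h it was -0.01 ± 0.22, with a 95% interval of -0.55 to 0.52. The 24 h call ended without replicate 3 of 24 h, at -0.43 (limma, adjusted p = 0.325). It also ended without any single array of 3, 8 or 72 h, at the same -0.95 and an adjusted p between 0.0708 and 0.0754. With the replicate number as a block it was -0.96 (adjusted p = 0.132), and with the scan day as a block -0.95 (adjusted p = 0.0494). With no filter on dim probes its adjusted p was 0.0615. Median centring, used instead of loess, leaves each array's intensity trend in the ratios. With it the Cyp2e1 ratios for 3, 24 and 48 h were -1.81, -1.82 and -2.15, with adjusted p of 0.0467, 0.129 and 0.0999.

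The second Cyp2e1 probe lies upstream of the brighter one in the gene and had its spots kept on all 10 arrays. Its log2 ratios were -0.71 and -0.90 at 3 h, and 0.00 and -0.06 at 8 h. They were -1.74 and -1.52 at 24 h, -3.58 and -2.48 at 48 h, and 0.36 and -0.48 at 72 h. Both arrays of 24 h and both of 48 h lay below all arrays of the other time points. The probe's fitted ratio was -0.80 ± 0.26 at 3 h (limma, adjusted p = 0.11). It fell to -1.63 ± 0.26 at 24 h (limma, adjusted p = 0.00617), or 32.3% of control, and to -3.03 ± 0.26 at 48 h (limma, adjusted p = 0.000207), or 12.3% of control. At 72 h it was -0.06 ± 0.26. Over the 9 arrays with both probes the second read lower than the brighter by 0.35 on the log2 scale on average (SD 0.488, lower on 7 of 9). An exact sign-flip permutation test, two-sided, gave p = 0.0547 for that difference. The brighter probe had between 64 and 260 brighter spots on an array. At 24 h on the array of replicate 1, the scanner software's own ratio for it was -1.25 where the loess ratio was -0.43.

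Cyp1a2 read 0.93 and 0.39 at 3 h on the arrays of replicates 1 and 3, both above 0. At 8 h it was -0.54 for replicate 2 and 0.41 for replicate 3, on either side of 0. At 24 h both arrays were low, at -1.85 and -2.43. At 48 h they were -2.19 and -3.18, and at 72 h both read -0.02. None of the 24 h and 48 h values overlapped those of the other time points. The fit gave 0.66 ± 0.29 at 3 h (limma, adjusted p = 0.212), which became -0.41 under median centring, and -0.07 ± 0.29 at 8 h. Cyp1a2 fell to -2.14 ± 0.29 at 24 h (limma, adjusted p = 0.00279), a 4.4-fold decrease. It fell to -2.69 ± 0.29 at 48 h (limma, adjusted p = 0.000517), a 6.43-fold decrease. Both calls held under each of the 14 other settings tried, with adjusted p up to 0.0093 at 24 h and 0.0051 at 48 h, and without any single array, up to 0.0499 and 0.00963. At 72 h the ratio was -0.02 ± 0.29, with a 95% interval of -0.69 to 0.65.

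Por showed no called change, and its 2 arrays often lay far apart. They read 0.02 and 0.75 at 3 h, and -0.11 and 0.45 at 8 h. At 24 h they read 0.61 and 0.03, at 48 h -0.90 and 0.31, and at 72 h 0.34 and 0.74. At 48 h the array of replicate 1 was the lowest of the 10 and that of replicate 3 lay above 0. The fitted ratios for 3, 8 and 24 h were 0.38, 0.17 and 0.32 ± 0.31, with 95% intervals of -0.33 to 1.09, -0.54 to 0.88 and -0.39 to 1.03. At 48 h it was -0.29 ± 0.31 (limma, adjusted p = 0.519; interval -1.003 to 0.42), and at 72 h 0.54 ± 0.31 (interval -0.17 to 1.25). The intervals at 24 h and 48 h leave out a fall of the size of Cyp1a2 and do not leave out a smaller one. Median centring turned the sign at 3, 8, 24 and 48 h, to -0.80, -0.56, -0.45 and 0.45, none of them called, so no direction is given for Por.

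The change between time points was tested next, since a constant dye effect cancels there. An F test over the 5 time points was called for Cyp2e1 (limma, adjusted p = 0.0101) and Cyp1a2 (adjusted p = 0.00424) and not for Por (adjusted p = 0.595), against 23.3% of all genes. From 8 h to 24 h, Cyp1a2 fell by 2.07 ± 0.41 on the log2 scale (limma, adjusted p = 0.0263; 3.82% of genes were called lower). Median centring ended that call at -2.01 (adjusted p = 0.29), and so did leaving out replicate 3 of 8 h (-1.60, 0.0899) or of 24 h (-1.78, 0.135). The same step of Cyp2e1 was -1.09 ± 0.32 (adjusted p = 0.106), and by its second probe -1.60 (adjusted p = 0.0451). From 24 h to 48 h, Cyp2e1 fell by a further 1.74 ± 0.39 (limma, adjusted p = 0.0371; 2.65% of genes called lower). That call ended with median centring (-0.33, adjusted p = 0.838), the second probe (-1.40, 0.0528), no filter (0.0523) and the replicate block (-1.89, 0.0573). It also ended without any single array of 3, 8 or 72 h or without replicate 3 of 48 h (0.0609 to 0.0631). Cyp1a2 moved by -0.55 ± 0.41 over that step (adjusted p = 0.472). Whether the courses of the P450 genes differ was not tested.

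From 48 h to 72 h, both P450 transcripts rose back. Cyp2e1 gained 2.68 ± 0.39 (limma, adjusted p = 0.0064) and Cyp1a2 2.67 ± 0.41 (limma, adjusted p = 0.0057), where 6.56% of genes were called higher. Por moved by 0.83 ± 0.43 (adjusted p = 0.254). Against 3 h, the ratio of Cyp1a2 differed by -2.80 ± 0.41 at 24 h (limma, adjusted p = 0.0061; 5.51% of genes called lower) and by -3.35 ± 0.41 at 48 h (adjusted p = 0.00155; 12.1% called lower). That of Cyp2e1 differed by -2.11 ± 0.39 between 48 h and 3 h (limma, adjusted p = 0.00917), and by -0.37 ± 0.32 between 24 h and 3 h (adjusted p = 0.579). Median centring ended the calls of Cyp2e1 for 72 h minus 48 h (2.22, adjusted p = 0.267) and 48 h minus 3 h (-0.34, 0.772) and of Cyp1a2 for 24 h minus 3 h (-2.38, 0.137). It kept those of Cyp1a2 for 72 h minus 48 h (2.28, 0.0466) and 48 h minus 3 h (-1.89, 0.0116). Between 3 h and 8 h, or 3 h and 72 h, 0 of 3 members were called, against 0.825% and 0.941% of all genes.

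The levels in each channel were read as well, and they depend on how the arrays were normalized. Control Cyp2e1 read 16.35 and 16.42 at 3 h, 16.03 and 15.86 at 8 h, 15.95 and 15.54 at 24 h, 16.44 on 1 array at 48 h, and 15.70 and 15.95 at 72 h. In treated livers it read 15.59 and 16.02 at 3 h, 16.23 and 15.95 at 8 h, 15.51 and 14.08 at 24 h, 13.75 at 48 h, and 15.81 and 15.82 at 72 h. The control values spanned less than 1 log2 unit and the treated ones more than 2. Control Cyp1a2 read 9.99 and 10.23 at 3 h, 11.14 and 10.60 at 8 h, 11.80 and 11.19 at 24 h, 10.51 and 10.74 at 48 h, and 10.67 and 10.28 at 72 h. Treated Cyp1a2 read 10.93 and 10.62 at 3 h, 10.60 and 11.01 at 8 h, 9.96 and 8.76 at 24 h, 8.32 and 7.56 at 48 h, and 10.65 and 10.25 at 72 h. At 24 h control Cyp1a2 was at its highest. Treated Cyp1a2 changed by -1.42 ± 0.40 from 3 h to 24 h, with no call (limma, adjusted p = 0.0601).

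The F test over time was called in treated livers for Cyp2e1 (limma, adjusted p = 0.0436) and Cyp1a2 (adjusted p = 0.00523) and not for Por (adjusted p = 0.635), against 18.7% of all genes. In control livers it was not called for Cyp2e1 (adjusted p = 0.117), Cyp1a2 (0.0852) or Por (0.0639), against 3.66% of all genes. From 3 h to 48 h the treated level of Cyp1a2 fell by 2.84 ± 0.40 (limma, adjusted p = 0.00355) and that of Cyp2e1 changed by -2.06 ± 0.50 (adjusted p = 0.0401), where 4.11% of genes were called lower. The Cyp2e1 call ended without any single array of 3, 8 or 72 h (adjusted p 0.0633 to 0.152). At 24 h, treated Cyp2e1 by the brighter probe stood at 49.9% of its 3 h level, with no call (limma, adjusted p = 0.209). Leaving out 1 array at a time, that change ranged from -1.72 to -0.29 on the log2 scale. Only by the second probe was the change in treated Cyp2e1 from 3 h to 24 h called, at -1.89 (limma, adjusted p = 0.0033). Control Cyp1a2 was higher at 24 h than at 3 h by 1.38 ± 0.26 (limma, adjusted p = 0.0373; 1.5% of genes called higher), a rise to 261% of the 3 h level. That call ended without any single array of 3, 24, 48 or 72 h (adjusted p 0.052 to 0.193), and with 75th percentile scaling it read 0.87 (adjusted p = 0.56). The same scaling ended the treated calls of Cyp2e1 (F test, adjusted p = 1) and Cyp1a2 (adjusted p = 0.368). The treated F call of Cyp2e1 also ended without any single array of 3, 8 or 72 h or without replicate 3 of 48 h, at an adjusted p of 0.0536 to 0.116. The control livers of all time points had the same fast before injection, and the hours since then differ along with the time point.

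Control Por read 12.88 and 12.80 at 3 h, 13.48 and 13.10 at 8 h, 13.06 and 13.31 at 24 h, 13.04 and 13.15 at 48 h, and 12.27 and 12.51 at 72 h. Treated Por read 12.90 and 13.55 at 3 h, 13.38 and 13.56 at 8 h, 13.67 and 13.35 at 24 h, 12.14 and 13.46 at 48 h, and 12.61 and 13.25 at 72 h. The control and treated ranges overlapped at 8 h and 48 h. At 3, 24 and 72 h both treated arrays were above both control arrays, with no call for the ratio.

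**Figure D2:**
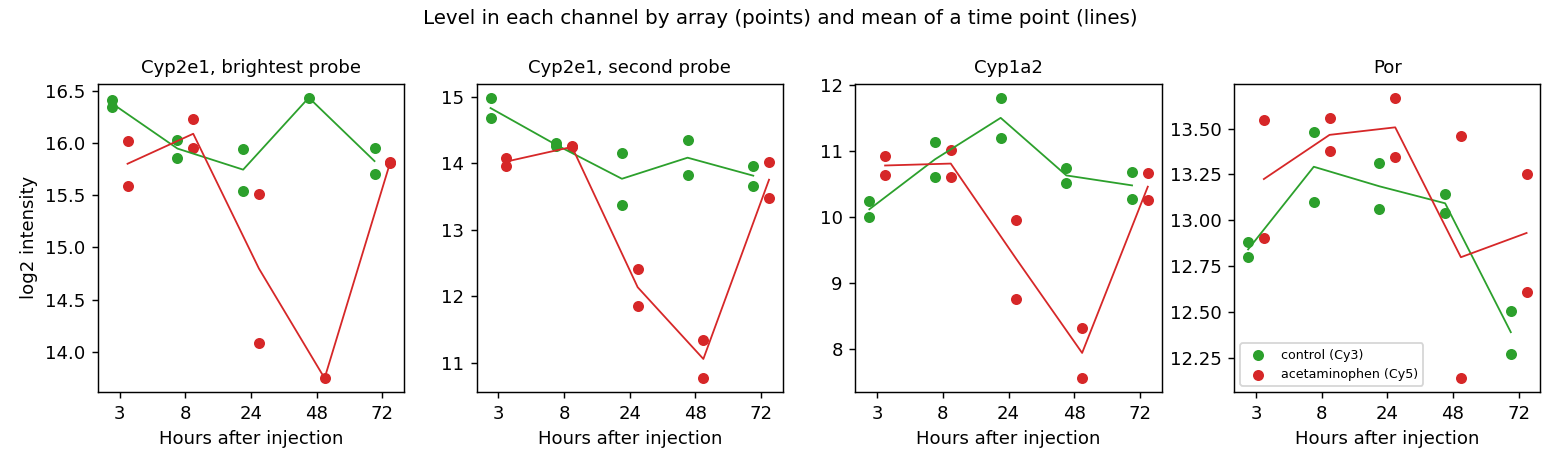
Log2 intensity (y, a separate range per panel) by hours after injection (x) for both Cyp2e1 probes, Cyp1a2 and Por, with control livers (Cy3) in green and treated livers (Cy5) in red. Points are arrays and lines join the means; the treated P450 levels drop at 24 and 48 h, to 7.56 for Cyp1a2, and the control and treated Por levels overlap at 8 and 48 h.

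The members were also compared within each array, as 3 pairs with exact sign-flip permutation tests, two-sided. Cyp2e1 changed less upward or more downward than Por on 8 of 9 arrays, with a mean difference in log2 ratio of -0.82 (SD 0.649, n = 9; exact p = 0.0117, adjusted 0.0351). The difference was -1.04 and -1.50 at 24 h and -1.79 on the usable 48 h array. Cyp1a2 lay below Por on 9 of 10 arrays, by -1.07 on average (SD 1.35, n = 10; exact p = 0.0332, adjusted 0.0498). It was -2.45 and -2.47 at 24 h and -1.29 and -3.49 at 48 h, and between -0.76 and 0.91 at the other time points. Cyp2e1 and Cyp1a2 differed by -0.02 on average (SD 0.958, n = 9; exact p = 0.957), at 1.41 and 0.97 on the 24 h arrays and -1.70 and -0.79 on the 3 h arrays. These tests pool time points. Since the dyes ran 1 way, a difference between the dye effects of the compared probes stays in these values. At 72 h, Cyp2e1 minus Por was -0.23 and -0.87, and Cyp1a2 minus Por was -0.36 and -0.76. Drug response and dye effect cannot be told apart in these tests. The call of Cyp2e1 against Por ended when 1 array was left out in 6 cases: replicate 3 of 3, 8 or 72 h, replicate 1 or 3 of 24 h, or replicate 1 of 48 h (adjusted p 0.0527 to 0.0703). For Cyp1a2 it ended without any single array other than replicate 1 of 3 h (adjusted p 0.0527 to 0.0996).

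The genes most like each member were those with the highest Pearson r of log2 ratios over the arrays, among 3783 genes whose time point means spanned at least 1. The arrays share time points, so these are descriptions. For Cyp2e1, over 9 arrays, they were Wdr34 (r = 0.973), Gc, the vitamin D-binding protein (0.949), and Cyp2c37, another pericentral P450 (0.934). The ratio of Gc was -0.76 at 24 h and -2.02 at 48 h, and that of Cyp2c37 -1.43 and -3.20. The lowest r was that of Iqgap1, a scaffold of the cell cortex (-0.942), at 0.44 and 1.48. For the second Cyp2e1 probe, over 10 arrays, they were the paraoxonase Pon1 (0.938), the glucuronosyltransferase Ugt1a6b (0.933) and again Gc (0.931). The lowest was Arsa, a lysosomal sulfatase (-0.953).

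For Cyp1a2, over 10 arrays, the most alike were Mettl26 (r = 0.986), the carboxypeptidase Cpq (0.983) and Prodh, the proline dehydrogenase (0.983). Prodh read -2.59 at 24 h and -3.49 at 48 h, and Cpq -1.11 and -1.53. Nr2c2ap had the lowest r (-0.992), at 0.84 and 0.96. For Por they were Kansl3 (0.923), Gm5115 (0.849) and the small Maf protein gene Mafg (0.838). Their 48 h ratios were -0.89, -0.94 and -0.68. The lowest was the nucleoside diphosphate kinase gene Nme1 (-0.811), at 1.20 at 48 h. Por had no called change between time points (limma F test, adjusted p = 0.595), and its 48 h arrays read -0.90 and 0.31. Its r values thus need not follow a time course, and shared regulation was not tested. Among the members themselves r was 0.649 for Cyp2e1 and Cyp1a2 (Spearman's rho 0.383, 9 arrays) and 0.745 for Cyp2e1 and Por (rho 0.233, 9 arrays). It was 0.346 for Cyp1a2 and Por (rho 0.297, 10 arrays).

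Several other redox partners of the P450 enzymes were called lower where Por was not. Of 10 measured genes of electron transfer, Por included, 4 fell and 0 rose at 24 h, and 5 fell and 2 rose at 48 h. The shares of all genes were 7.09% lower and 3.79% higher at 24 h, and 13.5% and 17.9% at 48 h. The list's median log2 ratio was -0.54 at 24 h and -0.42 at 48 h, beside 0.00 and -0.01 over all genes. Cyb5a, the cytochrome b5 that can pass the second electron to a P450, fell on both 24 h arrays (-1.88 and -1.89) and both 48 h arrays (-1.80 and -1.64). Cyb5b, its mitochondrial relative, fell to -2.16 ± 0.15 at 24 h and -0.83 ± 0.15 at 48 h. Cyb5r3, the reductase that charges cytochrome b5, fell to -1.04 ± 0.10 at 24 h and read -0.04 ± 0.10 at 48 h. Pgrmc1, a haem protein that binds P450 enzymes, fell at 48 h (-0.91 and -1.09 on the arrays), and Fdxr, which serves the mitochondrial P450s, fell to -0.79 ± 0.16 at 24 h and -0.76 ± 0.16 at 48 h. Cyb5r1 and Cyb5r4 rose at 48 h, to 0.52 and 0.58. Under median centring the 48 h median of the list was 0.18, with 1 gene higher and 0 lower. That setting called 2518 of 24007 genes higher and 382 lower at 48 h.

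**Figure D3:**
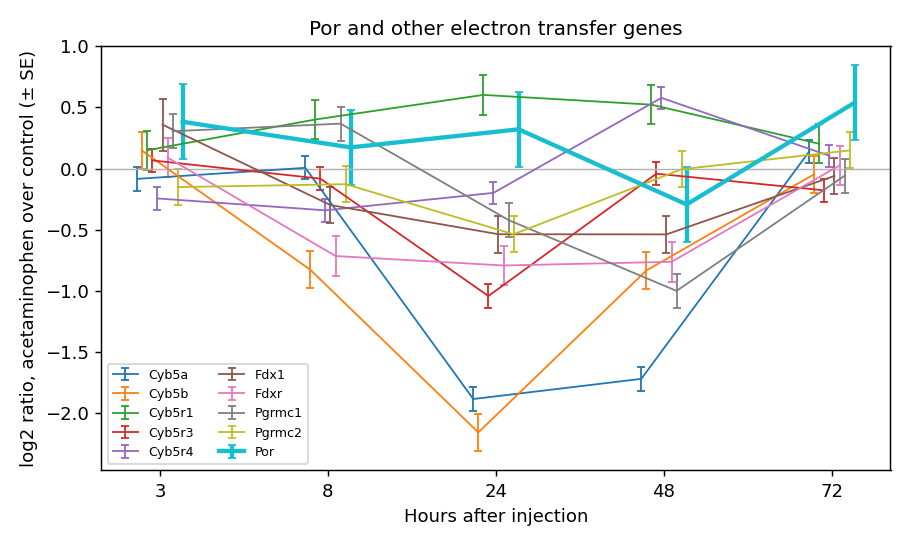
Log2 ratio of acetaminophen over control with its standard error (y) by hours after injection (x, shifted slightly per gene) for Por, the thick line, and the other 9 electron transfer genes measured. Cyb5a and Cyb5b are the lowest at 24 h, at -1.89 and -2.16, and Por lies between -0.29 and 0.54 throughout.

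Haem is the prosthetic group of both P450s. Of 15 genes of haem synthesis and breakdown, 2 rose and 5 fell at 24 h, and 5 rose and 4 fell at 48 h. Over all genes, 3.79% were called higher and 7.09% lower at 24 h, and 17.9% and 13.5% at 48 h. Alas1, the rate-limiting enzyme of haem synthesis, fell to -1.70 ± 0.26 at 3 h (-2.18 and -1.22 on the arrays) and was at -1.25 ± 0.26 at 24 h, both called. Cpox, a later enzyme of the pathway, fell at 3, 24 and 48 h, to -0.81, -0.79 and -0.91 ± 0.14. Hmox1, which degrades haem, rose at 3, 8, 24 and 48 h, to 2.94, 3.16, 1.76 and 1.68 ± 0.19. Blvrb, a biliverdin reductase, rose to 1.18 ± 0.18 at 24 h and 1.26 ± 0.18 at 48 h. At 3 h neither P450 was called, though the 95% interval of Cyp2e1, -1.115 to -0.04, lay below 0. The order of the haem gene and P450 changes was not tested. Under median centring 0 rose and 0 fell at 24 h, and 3 rose and 0 fell at 48 h. That setting called 26 of 24007 genes higher and 728 lower at 24 h, and 2518 higher and 382 lower at 48 h. The list's 48 h median was -0.14, and 0.41 under median centring.

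Among 11 measured genes of the aryl hydrocarbon receptor pathway, to which Cyp1a2 belongs, 0 rose and 1 fell at 24 h, and 2 rose and 5 fell at 48 h. The shares of all genes were 3.79% higher and 7.09% lower at 24 h, and 17.9% and 13.5% at 48 h. Ahr, the receptor, fell to -1.54 ± 0.20 at 3 h and -1.03 ± 0.20 at 48 h. Arnt, its dimer partner, fell by 0.43 at 8 h and by 0.39 at 48 h. The targets did not move as one. Ugt1a6b rose to 0.54 ± 0.10 at 8 h, and fell to -1.44 ± 0.10 at 24 h and -2.31 ± 0.10 at 48 h. Tiparp rose at 3, 8 and 48 h, to 1.62, 2.94 and 1.30 ± 0.29, and Nqo1, which is also an NRF2 target, rose to 1.15 ± 0.24 at 48 h. Cyp1a1 was not well above background on some arrays in both channels, and read between 0.07 and 0.37 with no call. Under median centring 1 rose and 1 fell at 48 h, where 2518 of 24007 genes were called higher and 382 lower. The 48 h median was -0.32, and 0.05 under median centring.

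Of 22 transcription factors of hepatic P450 genes, 0 rose and 9 fell at 24 h, and 1 rose and 11 fell at 48 h. At 3 h and 8 h, 2 rose each time and 6 and 8 fell. Over all genes, 3.36% were called higher and 4.08% lower at 3 h, and 5.33% and 7.57% at 8 h. These shares were 3.79% and 7.09% at 24 h, and 17.9% and 13.5% at 48 h. Dbp, a clock-controlled activator, fell at 3, 8, 24 and 48 h, to -1.95, -1.55, -2.77 and -3.14 ± 0.39, and Tef, of the same family, fell to -1.27 and -1.45 ± 0.23 at 24 h and 48 h. Cebpa, a factor of the differentiated hepatocyte, fell to -1.31 ± 0.14 at 24 h, and Cebpb, its acute phase relative, rose to 1.48 ± 0.22 at 3 h and 1.21 ± 0.22 at 8 h. Foxa2 fell to -2.06 ± 0.15 at 3 h and -1.53 ± 0.15 at 8 h, read 0.00 at 24 h and fell again to -0.93 ± 0.15 at 48 h. Nr1h4, the bile acid receptor FXR, fell to -1.38 ± 0.17 at 24 h, and Nr1i3, the receptor CAR, to -1.23 ± 0.25 at 48 h. Ctnnb1, the beta-catenin of the Wnt pathway that marks the pericentral zone, rose to 0.94 ± 0.17 at 48 h. Under median centring the list had 3 genes lower at 24 h and 1 at 48 h, where 728 and 382 of 24007 genes were called lower.

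Most other P450 genes of drug metabolism fell at 24 h and 48 h. Of 23 measured, 16 fell and 1 rose at 24 h, with a median of -1.43, and 18 fell and 0 rose at 48 h, with a median of -2.23. At 3 h and 8 h, 1 and 4 rose and 0 fell. The shares of all genes were 3.36% higher and 4.08% lower at 3 h, and 5.33% and 7.57% at 8 h. They were 3.79% and 7.09% at 24 h, and 17.9% and 13.5% at 48 h. Cyp3a11, the main CYP3A enzyme of mouse liver, fell on both arrays at 24 h (-2.52 and -2.34) and 48 h (-3.80 and -4.53). Cyp2c54 fell to -2.55 ± 0.18 and -4.53 ± 0.18, and Cyp2c29 to -2.42 ± 0.12 and -3.06 ± 0.12. Cyp2a4, a steroid hydroxylase, rose to 1.52 ± 0.11 at 24 h and fell to -1.31 ± 0.11 at 48 h. Many Cyp2a, Cyp2c and Cyp3a genes have near-identical copies, and cross-hybridisation between them was not tested. Under median centring 12 genes were lower and 0 higher at either time, with medians of -2.14 and -1.66. That setting called 728 of 24007 genes lower and 26 higher at 24 h, and 382 lower and 2518 higher at 48 h. At 24 h Cyp1a2 lay below this list's main median. Cyp2e1 lay above it by the brighter probe and below it by the second.

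Of 13 measured enzymes and transporters that clear acetaminophen and its metabolite, 2 rose and 4 fell at 24 h, and 5 rose and 5 fell at 48 h. Under median centring it was 0 and 2 at 24 h and 4 and 1 at 48 h, with a 48 h median of 0.89 against 0.24. That setting called 26 of 24007 genes higher and 728 lower at 24 h, and 2518 higher and 382 lower at 48 h. In the main setting, 3.79% of all genes were called higher and 7.09% lower at 24 h, and 17.9% and 13.5% at 48 h. The sulfation genes were low: Papss2, which makes the sulfate donor, fell to -2.39 ± 0.12 and -3.08 ± 0.12, and Sult1a1, a phenol sulfotransferase, fell to -2.40 ± 0.13 at 48 h (at 24 h -2.12 ± 0.18, from 1 array). Gclc, the catalytic subunit of the first step of glutathione synthesis, rose at 8, 24 and 48 h, to 3.31, 1.73 and 1.59 ± 0.27. Gstp1, a glutathione transferase, rose to 1.20 ± 0.21 at 8 h and 1.60 ± 0.21 at 48 h.

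Of 12 enzymes, chiefly oxygenases of sterols, bile acids and fatty acids, that mostly take their electrons from POR, 2 rose and 6 fell at 24 h. At 48 h, 1 rose and 4 fell. Over all genes, 3.79% were called higher and 7.09% lower at 24 h, and 17.9% and 13.5% at 48 h. Cyp4f14, a fatty acid hydroxylase, fell to -2.38 ± 0.25 and -2.93 ± 0.25. Fmo5, a flavin monooxygenase, which carries its own flavin, fell to -1.99 ± 0.23 at 24 h. Cyp4a14, a target of PPARalpha, rose to 2.05 ± 0.22 and 1.74 ± 0.22. In the 7 gene lists and the marker lists below, 0 genes were called at 72 h, where 0% of all genes were called.

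**Figure D4:**
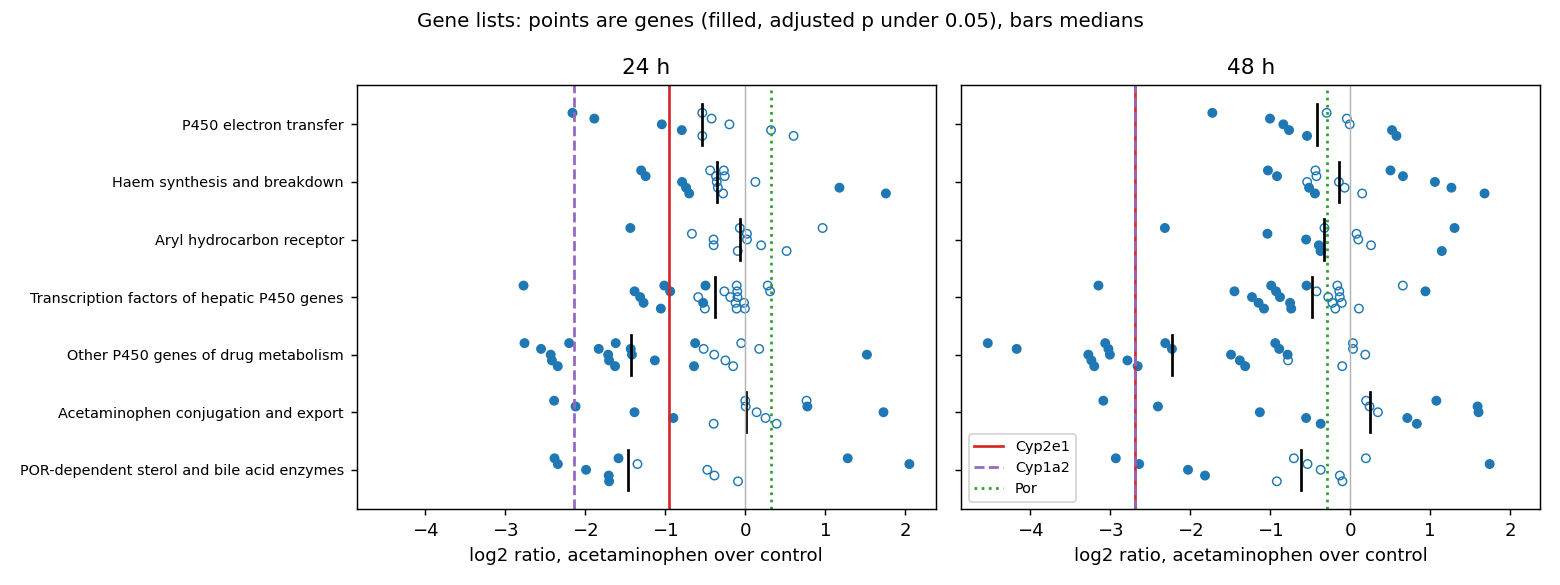
Log2 ratio of acetaminophen over control (x) for the measured genes of each of 7 lists (y) at 24 h and 48 h. Points are genes, filled where called, black bars are list medians, and vertical lines mark Cyp2e1, Cyp1a2 and Por; the other P450 genes have the medians farthest below 0 at 48 h (-2.23), near the Cyp2e1 and Cyp1a2 lines, which overlap at -2.69.

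In whole liver, fewer cells of a type and less RNA per cell cannot be told apart, so the zonal markers stand beside the members. Cyp2c37 and Cyp2c50 of the pericentral markers and Cyp2f2 of the periportal ones also belong to the list of other P450 genes. The shares of all genes were 3.79% higher and 7.09% lower at 24 h, and 17.9% and 13.5% at 48 h. Of 16 measured markers of pericentral hepatocytes, 9 fell at 24 h and 13 at 48 h, and 0 rose at either time. Their medians were -0.93 and -1.99, and Glul, glutamine synthetase, fell to -2.91 ± 0.39 and -3.94 ± 0.39. Their summed intensity ranged from 61700 to 104000 in control livers, from 26000 to 34100 in treated livers at 24 h and from 21600 to 28600 at 48 h, and from 65300 to 70400 at 72 h. Of 15 periportal markers, 12 fell at 24 h and 11 at 48 h, with 0 and 1 rising. The periportal Gls2 fell to -3.37 ± 0.17 and -2.34 ± 0.17. The periportal median was -2.11 at 24 h and -0.97 at 48 h. Under median centring 8 periportal markers were lower at 24 h and 2 at 48 h, with 0 higher and a 48 h median of -0.47. For the pericentral markers these counts were 8 and 10. Median centring called 728 of 24007 genes lower and 26 higher at 24 h, and 382 lower and 2518 higher at 48 h. Of 12 general hepatocyte markers, 4 fell at 24 h and 6 at 48 h, among them Apoc3 at -1.23 ± 0.17 and -1.58 ± 0.17, and 0 rose. Albumin (Alb), also in that list and named after its values were seen, read -0.43 and -0.09 with no call. Under median centring 1 general marker was lower at 24 h and 0 at 48 h, with a 48 h median of -0.02 against -0.82. Already at 3 h, 2 of 16 pericentral markers fell and 0 rose, and 4 of 15 periportal markers rose and 0 fell. Of all genes, 4.08% were called lower and 3.36% higher at 3 h. With median centring, 14 pericentral markers were lower and 0 periportal ones higher at 3 h, where 4998 of 24007 genes were called lower and 1003 higher.

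Most measured markers of recruited macrophages and of neutrophils were called higher at 48 h. Over all genes, 3.79% were called higher and 7.09% lower at 24 h, and 17.9% and 13.5% at 48 h. Of 7 measured markers of recruited macrophages, 0 were called at 24 h and 5 rose at 48 h, with Chil3 at 3.27 ± 0.35 and Lgals3 at 2.65 ± 0.45. Of 6 measured neutrophil markers, 3 rose at 24 h and 4 at 48 h, with S100a9 at 3.04 ± 0.50 and 3.66 ± 0.50. Their summed intensity was 44300 and 26400 in treated livers at 24 h, against 16000 and 19900 in the control livers on the same arrays, and 31100 and 22600 against 30100 and 25000 at 48 h. Itgam of the macrophage list and Csf3r of the neutrophil list read -0.56 and -0.45 at 48 h with no call. Both were named after their values were seen. Of 8 Kupffer cell markers, 0 were called at 24 h and 1 rose at 48 h. Of 8 lymphocyte markers, 1 rose at 24 h and 0 were called at 48 h. Of 8 stellate cell markers, 0 were called at 24 h, and 2 rose and 1 fell at 48 h. Under median centring 4 markers of recruited macrophages and 4 of neutrophils rose at 48 h, and 1 stellate marker rose and 0 fell. That setting called 2518 of 24007 genes higher and 382 lower at 48 h. The part of these cells, and of hepatocyte loss, in the fall of Cyp2e1 and Cyp1a2 was not tested.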

How the data were processed

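Per the file headers, Agilent Feature Extraction 10.7.3.1 read the 10 arrays. The deposited scanner files give the mean and background intensity of both channels, flags, and the software's log10 ratio. The authors' deposited value table holds a score on an unstated scale; it was 1.443 times the log10 ratio on every array (correlation 1, median 0), so it was rescaled to log2 as an alternative.

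In limma 3.58.1 (R 4.3.3), mean intensities were corrected with normexp (offset 50) and normalized by loess within arrays, with 1377 control spots and outlier spots at weight 0. Afterwards 2718 outlier spots were left out. A probe was kept (29623 of 39429) if 1 channel was well above background on both arrays of any time point, and the brightest kept probe stood for its gene. Probes were named through RefSeq (GRCm38.p6) accessions (26581), current symbols (2597), older symbols (492) or the files' names (9759). Each time point had its own coefficient, leaving 5 residual degrees of freedom. Channel levels were taken after loess and Aquantile. The scripts were tested on simulated data. Only 10 arrays limit the precision.

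Replicate numbers are those of the treated mice. These numbers were not taken to pair the samples, and the correlations of same-numbered arrays are given below. The 4 slides and 2 scan days were tried as blocks; each scan day held 1 array of every time point, so the 2 values of a time point are the within-day values.

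The members and the 7 gene lists and the marker lists were chosen with earlier results of these data known. Named genes are the members, the 3 most and 1 least correlated genes per member, up to 4 called genes per list and time point plus 2 against the majority, any gene of a list of at most 15, and 2 called genes per marker list at 24 and 48 h. Some list and sequence results are not reported here.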

Additional observations from a re-analysis of the deposited data

Results flagged for a closer look

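These 7 differences between time points in the effect of treatment passed limma's test of the difference itself (adjusted over 24007 genes). For Cyp2e1 the log2 ratio changed by -1.74 from 24 h to 48 h, by 2.68 from 48 h to 72 h and by -2.11 from 3 h to 48 h. For Cyp1a2 it changed by -2.07 from 8 h to 24 h, by 2.67 from 48 h to 72 h, by -2.80 from 3 h to 24 h and by -3.35 from 3 h to 48 h. The Cyp2e1 values at 48 h come from 1 array. With median centring in place of loess, 5 of the 7 lost their call: the 3 of Cyp2e1 (-0.33, 2.22 and -0.34, in the order above) and those of Cyp1a2 from 8 h to 24 h (-2.01) and from 3 h to 24 h (-2.38).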

How the results depend on the processing

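There were 2 arrays per time point, no dye swap and 1 usable 48 h spot of the brighter Cyp2e1 probe. The settings with outlier spots kept, and the second Cyp2e1 probe in channel levels and within-array differences, were chosen after seeing the data. Leaving out saturated spots gave no other value, since there were 0. The calls of Cyp1a2 at 24 h and 48 h held under every setting run, and 0 called values changed sign. Causes were not tested.

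With median centring in place of loess, the median of all genes moved to -0.24 at 3 h and -0.18 at 8 h, and calls were 1003 higher and 4998 lower at 3 h, 162 and 2368 at 8 h, 26 and 728 at 24 h, and 2518 and 382 at 48 h. Totals were 6001 at 3 h, 754 at 24 h and 2900 at 48 h, against 1786, 2611 and 7541 in the main setting. Under it Cyp2e1 was -1.81 at 3 h (now called), and -1.82 at 24 h, -2.15 at 48 h, -0.33 for 48 h minus 24 h, 2.22 for 72 h minus 48 h and -0.34 for 48 h minus 3 h, none called. Cyp1a2 was -2.01 for 24 h minus 8 h and -2.38 for 24 h minus 3 h, and Cyp1a2 minus Por -1.09, none called. Cyp2e1 24 h minus 8 h was called at -1.24 with no background correction, -1.25 with the software's ratio and the authors' table, -1.34 with the mean of probes and -1.60 with the second probe. Cyp2e1 48 h minus 24 h lost its call at -1.40 with the second probe and -1.74 with no filter, as did 24 h at -0.95 with no filter. No background correction gave 4872 genes at 24 h and 2 at 72 h. The software's ratio and the authors' table each gave 1063 at 3 h, 4220 at 24 h and 1 at 72 h. Offset 0, the stricter filter and the intensity trend each gave 1 at 72 h. With 75th percentile scaling, treated F adjusted p was 1 for Cyp2e1 and 0.368 for Cyp1a2.

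The replicate numbers were not taken to pair the samples, although numbers 1 and 2 lie on 1 scan day and number 3 on the other. Deviations of same-numbered arrays correlated between -0.0366 (3 h and 24 h) and 0.295 (24 h and 48 h). Those of 8 h, whose arrays were numbers 2 and 3, correlated with the other time points between -0.122 and -0.0724. With the replicate block, Cyp2e1 was -0.96 at 24 h (limma, adjusted p = 0.132) and -1.89 for 48 h minus 24 h (0.0573), its treated F adjusted p was 0.0835, and Por's control F adjusted p was 0.0448.

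Leaving out 1 array at a time, values ranged from -0.76 to -0.40 (Cyp2e1, 3 h; called without either 24 h array), -1.46 to -0.43 (24 h), -1.60 to -0.57 (24 h minus 8 h; called without replicate 1 of 24 h) and -2.26 to -1.23 (48 h minus 24 h; not called without any 1 of the 3, 8 or 72 h arrays or replicate 3 of 48 h). Cyp1a2 24 h minus 8 h ranged from -2.55 to -1.60 and lost its call without replicate 3 of 8 h or of 24 h. Cyp2e1 minus Por ranged from -0.96 to -0.70, Cyp1a2 minus Por from -1.30 to -0.81, and Cyp2e1's treated F adjusted p from 0.00362 to 0.116. Genes called ranged from 404 to 2030 at 3 h, 415 to 3336 at 8 h, 1360 to 2729 at 24 h, 3405 to 7362 at 48 h and 0 to 1 at 72 h. The lowest counts were without replicate 1 of 3 h, replicate 2 of 8 h, replicate 3 of 24 h and replicate 3 of 48 h.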
